A study of Mus musculus with 15 samples.

Results

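The SLAM family transcripts described here are 7 of the 27019 gene symbols counted in splenic CD8+ T cells: Cd48, the receptors Slamf1, Slamf6, Slamf7, Ly9 and Cd84, and the adaptor gene Sh2d1a. They were chosen by name and, in part, selected on the day 0 counts of Cd48, which was lower in naive Susd2-/- cells than in naive WT cells. The day 0 difference between genotypes therefore helped to choose them and is given below as a description with no test. All 7 were in the count table, and all 7 passed the filter on low counts that left 16057 genes. The cells came from the spleens of OT-I mice of the C57BL/6 strain, aged 8 to 10 weeks, whose transgenic T cell receptor recognises an ovalbumin peptide. There were 4 groups of 2 libraries: Susd2-/- cells after 3 days of splenocyte culture with the peptide OVA257-264 (day 3), WT cells after the same culture, untreated Susd2-/- cells (day 0) and untreated WT cells. CD8+ T cells were taken from the splenocytes with a magnetic bead kit, so other spleen cells were present during the culture and may be present in the libraries. The labels do not say whether libraries within a group represent different mice or cultures, so p-values measure only the spread between libraries, which may be technical.

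SLAM family receptors are immunoglobulin superfamily proteins on the surface of blood cells, and most of them bind a copy of themselves on a neighbouring cell. Tyrosine motifs in the tails of most, but not all, of these receptors bind SAP, the small adaptor encoded by Sh2d1a, which recruits the kinase Fyn. Without SAP the same motifs recruit phosphatases and the receptors can inhibit, and loss of SAP in humans causes X-linked lymphoproliferative disease. CD48 is the exception in structure: it is held in the membrane by a glycosylphosphatidylinositol (GPI) anchor, has no cytoplasmic tail, and is a ligand of CD2 and of CD244.

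Library totals ran from 26829807 to 53846911 counts. Levels are given as CPM, counts relative to library size after scaling with edgeR's TMM factors, and a difference is called when edgeR's quasi-likelihood test gave an adjusted p below 0.05 (Benjamini-Hochberg over the 16057 genes). Susd2 was looked at first as a check of the labels. Activated cells gave 0 and 2 counts (Susd2-/-) against 16 and 10 (WT), and naive cells gave 1 and 3 (Susd2-/-) against 90 and 80 (WT). Susd2 itself did not pass edgeR's test between genotypes at day 3 (log2 fold change -3.96, adjusted p = 0.112). The spread between libraries of a group was 10.0% at day 3 and 5.35% at day 0 (biological coefficient of variation). The test used a spread per gene shared by all groups. The SEs and p-values of the day 3 genotype comparison therefore also draw on the day 0 libraries.

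Of the 7 genes, 6 lie in 1 cluster on mouse chromosome 1 and Sh2d1a lies on the X chromosome, on the plus strand at chrX:42502453-42529330 (GRCm38, GENCODE M21). The cluster spans chr1:171588624-171953170, 364.5 kb, in the order Ly9, Slamf7, Cd48, Slamf1, Cd84 and Slamf6, with Ly9 and Slamf7 on the minus strand and the other 4 on the plus strand. Neighbours in it changed in opposite directions after activation, and the promoters of the 5 members for which RefSeq's GRCm38.p6 table has an entry are therefore shown, from 250 bases before the start site to 50 after it. Capitals mark matches, on either strand, to 11 motifs searched. These were AP-1 (TGANTCA), CRE (TGACGTCA), ETS (AGGAAGT), RUNX (TGTGGT), TCF/LEF (CTTTGAT), KLF/SP (CCNCNCCC), IRF (a pair of GAAA repeats with 2 bases between them), E2F (TTCCCGC), NFAT (TGGAAAA), the motif of GATA factors, spelled AGATAA, and the MYC E-box (CACGTG). Slamf6 and Cd84 fell with activation, Slamf7 and Slamf1 rose, and Cd48 is the gene whose naive level helped to choose the set.
Slamf6 promoter, chr1:171917212-171917511, plus strand: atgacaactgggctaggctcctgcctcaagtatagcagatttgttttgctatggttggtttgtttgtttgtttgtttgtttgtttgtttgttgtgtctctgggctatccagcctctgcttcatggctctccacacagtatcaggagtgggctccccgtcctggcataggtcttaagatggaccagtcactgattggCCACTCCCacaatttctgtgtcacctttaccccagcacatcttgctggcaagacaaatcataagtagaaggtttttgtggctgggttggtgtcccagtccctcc
Cd84 promoter, chr1:171839447-171839746, plus strand: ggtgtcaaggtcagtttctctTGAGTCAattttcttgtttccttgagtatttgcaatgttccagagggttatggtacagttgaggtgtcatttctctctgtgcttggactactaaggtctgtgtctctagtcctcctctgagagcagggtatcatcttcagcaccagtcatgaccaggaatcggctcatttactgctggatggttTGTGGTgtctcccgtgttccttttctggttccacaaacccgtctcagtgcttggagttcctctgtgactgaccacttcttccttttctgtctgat
Slamf7 promoter, chr1:171648950-171649249, minus strand: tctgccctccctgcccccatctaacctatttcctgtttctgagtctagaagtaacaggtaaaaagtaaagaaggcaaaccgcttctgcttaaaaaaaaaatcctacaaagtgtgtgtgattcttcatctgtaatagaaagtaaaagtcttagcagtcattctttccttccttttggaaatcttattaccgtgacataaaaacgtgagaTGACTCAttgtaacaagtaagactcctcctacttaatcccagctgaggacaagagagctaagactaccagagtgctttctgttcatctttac
Slamf1 promoter, chr1:171766882-171767181, plus strand: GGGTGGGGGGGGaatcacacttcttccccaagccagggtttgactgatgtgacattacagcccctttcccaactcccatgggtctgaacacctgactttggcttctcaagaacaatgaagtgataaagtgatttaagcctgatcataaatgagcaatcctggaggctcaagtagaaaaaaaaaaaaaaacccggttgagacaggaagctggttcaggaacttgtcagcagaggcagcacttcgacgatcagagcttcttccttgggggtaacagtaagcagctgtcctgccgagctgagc
Cd48 promoter, chr1:171681742-171682041, plus strand: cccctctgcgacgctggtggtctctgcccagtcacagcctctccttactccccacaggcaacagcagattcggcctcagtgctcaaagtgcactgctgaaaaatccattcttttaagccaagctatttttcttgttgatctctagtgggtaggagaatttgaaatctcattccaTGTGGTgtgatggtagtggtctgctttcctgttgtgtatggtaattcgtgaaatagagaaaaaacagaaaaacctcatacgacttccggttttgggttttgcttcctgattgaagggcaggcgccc

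An AP-1 motif was found in the promoters of Slamf7 and Cd84, and 7.79% of the 32544 distinct promoters in the table hold one. A RUNX motif was found in those of Cd84 and Cd48 (16.7% of all promoters), and a KLF/SP motif in those of Slamf6 and Slamf1 (49.7%). The pair of KLF/SP matches in Slamf1 overlap each other, and no match overlaps another motif. None of the 11 motifs was shared by Slamf6 and Cd84, which fell, nor by Slamf7 and Slamf1, which rose. The Slamf7 start site in this table lies inside the longer GENCODE gene. The table has no entry for Ly9 or Sh2d1a.

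The first question was what 3 days of peptide stimulation did to the family in each genotype. After activation Slamf6 and Cd84 fell to a small part of their naive levels, Ly9 fell moderately, and Slamf1, Slamf7 and Sh2d1a rose. The direction of each of these 6 genes was the same in Susd2-/- and in WT cells. In Susd2-/- cells 3 of the 6 rose and 3 fell, where edgeR called 36.7% of all genes higher and 39.7% lower. In WT cells the same 3 genes rose and the same 3 fell, where 36.2% of all genes were called higher and 39% lower. With 76.4% of all genes called in Susd2-/- cells and 75.2% in WT cells, passing the test here does not set these genes apart. Slamf6 and Cd84 were called at least 4-fold lower, as were 17.6% of all genes in Susd2-/- cells and 16.2% in WT cells. Cd48 is left out of these counts because its day 0 level helped to choose it. The comparisons of the other 6 genes use the same day 0 libraries. In bulk RNA, fewer cells of a type and less RNA per cell cannot be told apart.

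**Figure D1:**
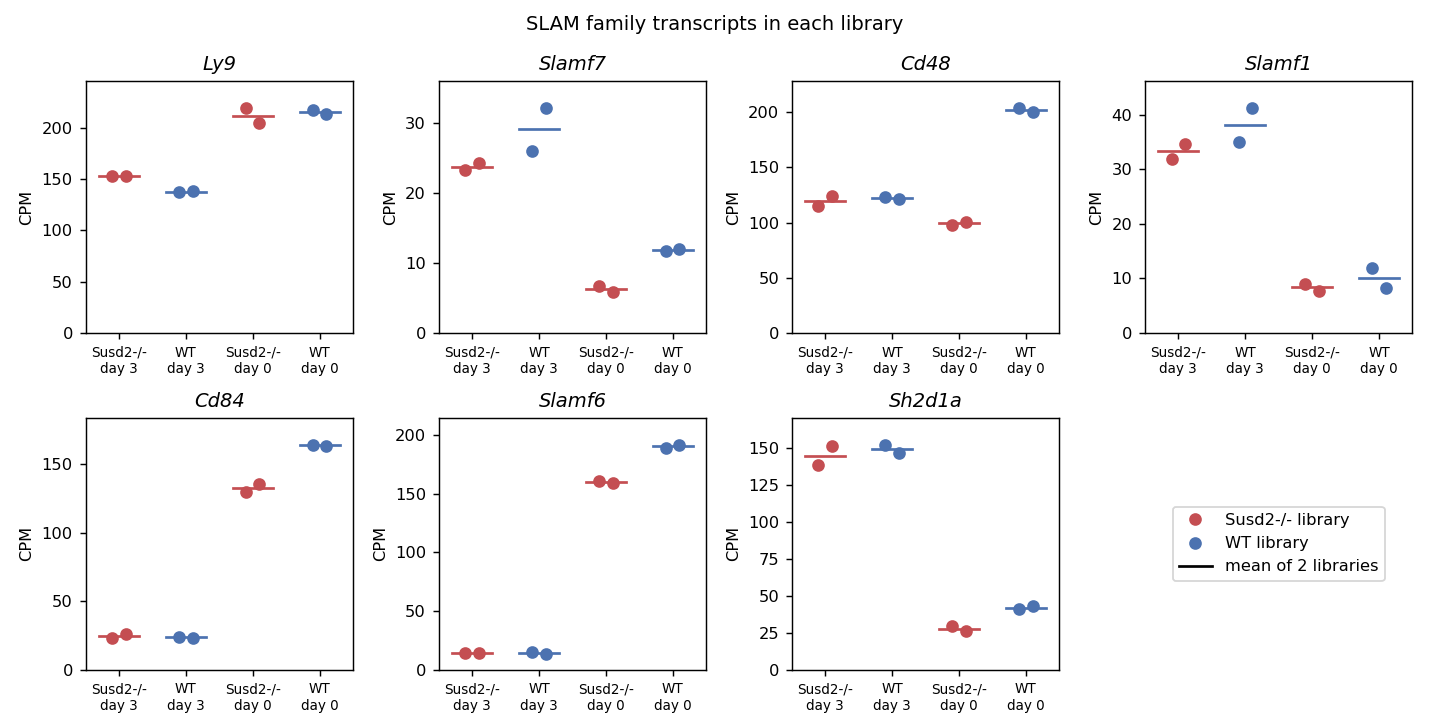
Level of each gene (CPM, linear axis from 0) in each of the 8 libraries: points are libraries, bars the mean of 2, red Susd2-/- and blue WT. Slamf6 and Cd84 lie between 13.2 and 25.7 CPM in the 4 day 3 libraries and between 129 and 192 CPM in the 4 day 0 libraries, while Cd48 is at 98.2 and 101 CPM in naive Susd2-/- libraries and at 204 and 200 CPM in naive WT libraries.

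Cd48, the GPI-anchored ligand, had 115 and 124 CPM in the Susd2-/- libraries and 123 and 122 CPM in the WT libraries at day 3. At day 0 it had 98.2 and 101 CPM in the Susd2-/- libraries and 204 and 200 CPM in the WT libraries. The 4 day 3 libraries and the naive Susd2-/- libraries thus lay within 98.2 to 124 CPM, and the naive WT libraries stood above all of them. The log2 fold change of day 3 over day 0 was 0.27 ± 0.06 (SE) in Susd2-/- cells and -0.72 ± 0.06 in WT cells, both given without a test. Scaled by library totals alone, a scaling under which the median log2 fold change of all genes moved from -0.12 to -0.32 in Susd2-/- cells and from -0.14 to -0.32 in WT cells, the Cd48 value was 0.07 in Susd2-/- cells and -0.90 in WT cells. On that scale the Susd2-/- libraries overlapped between days, with 108 and 117 CPM at day 3 against 105 and 109.6 CPM at day 0. The WT libraries had 114 and 113 CPM at day 3 against 215 and 211 CPM at day 0. Single lanes, by lane totals, ran from 104 to 118 CPM in Susd2-/- cells and from 113 to 114 CPM in WT cells at day 3, and from 105 to 111 CPM in Susd2-/- cells and from 207 to 216 CPM in WT cells at day 0.

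Slamf6 encodes Ly108, a self-binding receptor that in mice marks progenitor-like CD8+ T cells in chronic infection. It had 14.4 and 13.9 CPM in Susd2-/- libraries at day 3, against 160 and 159 CPM in Susd2-/- libraries at day 0. The WT libraries had 15.1 and 13.2 CPM at day 3, against 189 and 192 CPM at day 0. The days were far apart in both genotypes, and this was the steepest fall among the 7 genes. The log2 fold change was -3.50 ± 0.08 in Susd2-/- cells (an 11.3-fold fall, edgeR adjusted p = 6.22e-18) and -3.75 ± 0.08 in WT cells (a 13.5-fold fall, adjusted p = 3.33e-18). In Susd2-/- cells 8.07% of all genes had a lower log2 fold change than Slamf6, and in WT cells 6.79% did.

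Cd84, the member nearest to Slamf6 in the cluster and also a self-binding receptor gene, fell as well. Its levels were 23.2 and 25.7 CPM in Susd2-/- libraries at day 3, against 129 and 135 CPM at day 0. In WT libraries they were 24.0 and 23.4 CPM at day 3, against 164 and 163 CPM at day 0. The days did not overlap in either genotype, and the log2 fold change was -2.43 ± 0.07 in Susd2-/- cells (adjusted p = 4.57e-16) and -2.79 ± 0.08 in WT cells (adjusted p = 8.69e-17).

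Ly9, which encodes the receptor CD229, changed least of the 3 falling genes. It had 153 and 153 CPM in Susd2-/- libraries at day 3, against 219 and 204 CPM at day 0, and 137 and 138 CPM in WT libraries at day 3, against 217 and 214 CPM at day 0. The log2 fold change was -0.47 ± 0.06 in Susd2-/- cells (adjusted p = 9.43e-07) and -0.65 ± 0.06 in WT cells (adjusted p = 1.35e-08). Relative to the median of all genes, which was below 0 in both comparisons, the fall was smaller still.

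Slamf1 encodes CD150, a self-binding receptor which in humans is also an entry receptor for measles virus. Its levels were 31.8 and 34.7 CPM in Susd2-/- libraries at day 3, against 8.96 and 7.73 CPM at day 0. The WT libraries had 34.9 and 41.2 CPM at day 3, against 11.9 and 8.27 CPM at day 0. It rose in both genotypes with no overlap between days, by 2.00 ± 0.15 on the log2 scale in Susd2-/- cells (adjusted p = 1.95e-09) and by 1.91 ± 0.15 in WT cells (adjusted p = 2.97e-09).

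Slamf7 encodes CRACC, a self-binding receptor known from natural killer cells and plasma cells. It had 23.3 and 24.3 CPM in Susd2-/- libraries at day 3, against 6.80 and 5.91 CPM at day 0, and 26.1 and 32.2 CPM in WT libraries at day 3, against 11.8 and 12.1 CPM at day 0. The log2 fold change was 1.90 ± 0.14 in Susd2-/- cells (adjusted p = 2.91e-10) and 1.29 ± 0.13 in WT cells (adjusted p = 4.58e-08). The larger rise in Susd2-/- cells began at a lower day 0 level, and the difference between the rises, 0.61 ± 0.19, was not tested because it contains the day 0 genotype difference. An antisense gene, Gm37787, overlaps an exon of Slamf7 and had 19 counts over all libraries, against 1924 Slamf7 counts in Susd2-/- libraries and 1717 in WT libraries at day 3.

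Sh2d1a, the SAP gene, had the largest rise of the 7 in Susd2-/- cells. It had 138 and 152 CPM in Susd2-/- libraries at day 3, against 29.6 and 26.0 CPM at day 0. In WT libraries it had 152 and 147 CPM at day 3, against 41.0 and 43.1 CPM at day 0. The days did not overlap, and the log2 fold change was 2.38 ± 0.08 in Susd2-/- cells (a 5.21-fold rise, adjusted p = 1.76e-15) and 1.83 ± 0.08 in WT cells (a 3.56-fold rise, adjusted p = 5.93e-14). Exons of Tenm1 on the opposite strand overlap Sh2d1a and had 15 counts over all libraries.

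**Figure D2:**
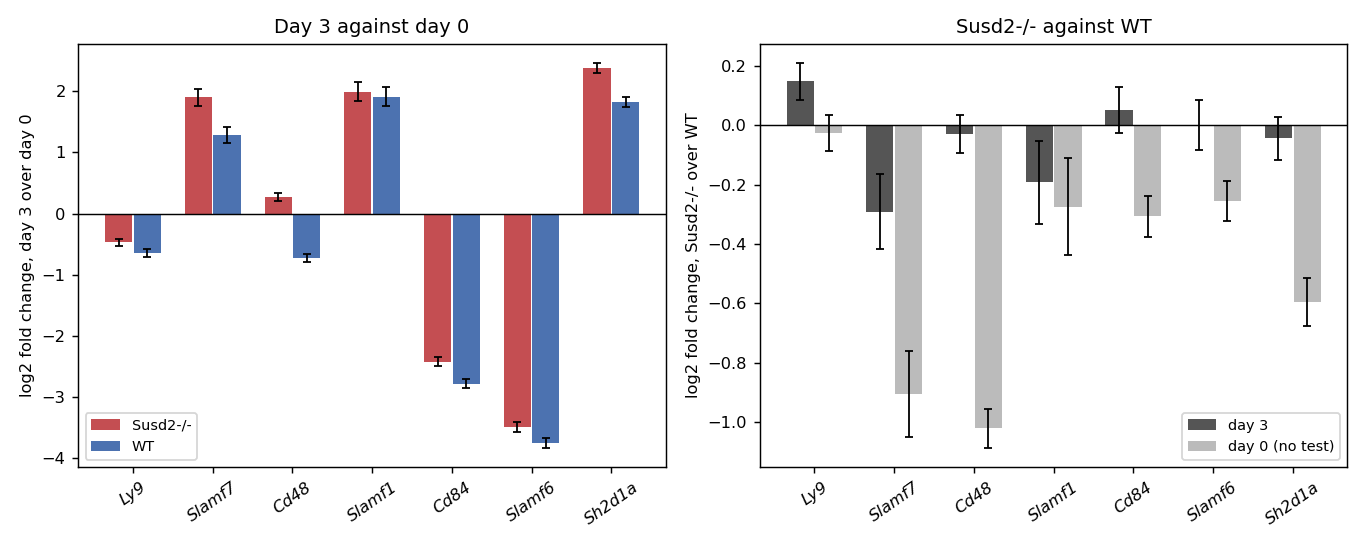
Log2 fold changes with standard errors (bars from 0, whiskers SE, n = 2 libraries per group): day 3 over day 0 on the left, Susd2-/- over WT on the right. Cd48 is the only one of the 7 with opposite signs in the left panel, 0.27 in Susd2-/- and -0.72 in WT cells. Neither Cd48 on the left nor any day 0 bar on the right carries a test.

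Levels of different genes can be compared only per length, and CPM was therefore divided by the length of all annotated exons of a gene, which includes exons that these cells may not use. On this scale the 6 cell-surface genes (Cd48 and the 5 receptors) summed to 163 ± 5.99 CPM per kb in Susd2-/- cells and 162 ± 0.81 in WT cells at day 3 (SD, n = 2). At day 0 the sum was 186 ± 1.48 CPM per kb in Susd2-/- cells and 283 ± 3.23 in WT cells. Cd48 made up 61.9% ± 0.97 of the sum in Susd2-/- and 63.4% ± 0.82 in WT cells at day 3, and 44.9% ± 1.1 in Susd2-/- and 60.0% ± 0.08 in WT cells at day 0. Cd48 and Ly9 were thus the highest per length in all 4 groups. Slamf6 made up 0.81% ± 0.05 in Susd2-/- and 0.80% ± 0.08 in WT cells at day 3, against 7.92% ± 0.02 in Susd2-/- and 6.22% ± 0.13 in WT cells at day 0. Slamf1 and Slamf7 were the lowest at day 0. At day 3 Slamf1 held 3.32% ± 0.08 of the sum in Susd2-/- cells and 3.82% ± 0.42 in WT cells.

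The order at day 3 was Cd48, Ly9, Sh2d1a, then Slamf1 and Slamf7, then Cd84 and Slamf6. Slamf1 and Slamf7 did not differ beyond their spread: Slamf1 had 5.17 and 5.64 CPM per kb and Slamf7 5.08 and 5.31 CPM per kb in the Susd2-/- libraries, and their ranges overlapped in the WT libraries too. At day 0 the order was Cd48, Ly9, Cd84, Slamf6, Sh2d1a, Slamf7 and Slamf1, and here Slamf7 and Slamf1 overlapped in the Susd2-/- libraries but not in the WT libraries. Sh2d1a amounted to 16.2% ± 0.45 of the summed level of the 6 cell-surface genes in Susd2-/- cells and 16.8% ± 0.52 in WT cells at day 3. At day 0 the figures were 2.71% ± 0.22 in Susd2-/- and 2.70% ± 0.12 in WT cells. These figures include Cd48, which has no tail to bind SAP and whose day 0 level helped to choose the set. Relative to the other 5 receptors alone, Sh2d1a amounted to 40.9% and 44.1% in Susd2-/- libraries and 47.6% and 44.1% in WT libraries at day 3, and to 5.13% and 4.7% in Susd2-/- libraries and 6.55% and 6.97% in WT libraries at day 0. With or without Cd48 the proportion was higher in each day 3 library than in any day 0 library.

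**Figure D3:**
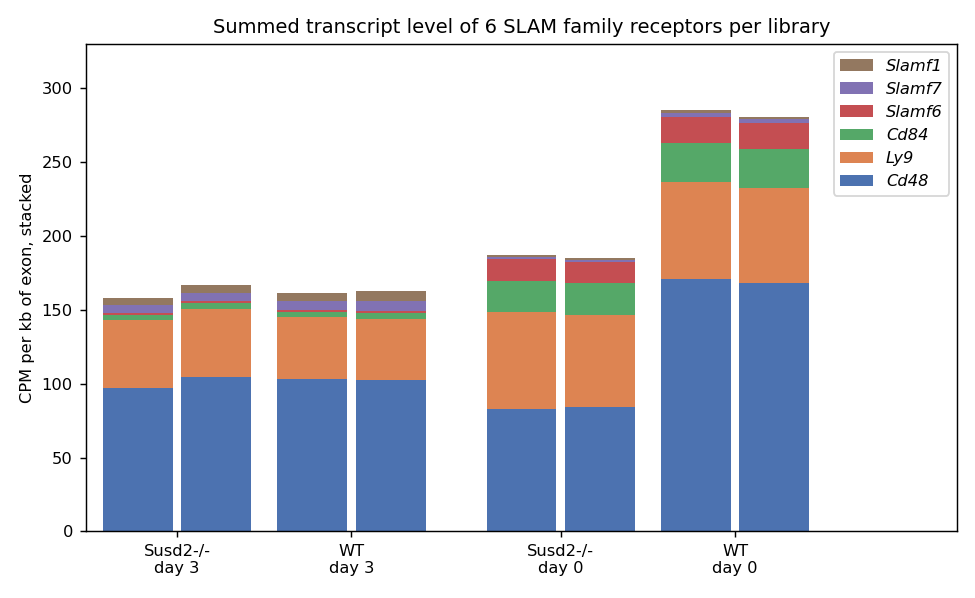
Stacked CPM per kb of exon for Cd48 and the 5 receptors, 1 bar per library and 2 per group. The Cd48 share (bottom) is about the same height in the 4 day 3 libraries, 96.9 to 104 CPM per kb, lower in naive Susd2-/- libraries and higher in naive WT libraries, at 168 and 171 CPM per kb.

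The second question was whether activated Susd2-/- cells differed from activated WT cells. At day 3, edgeR called 0 of the 7 genes. Over all genes 0.137% were called, 22 in number, with 0.0498% higher and 0.0872% lower. Of the members, 2 had an unadjusted p below 0.05, where 7.89% of all genes did. DESeq2 and limma voom also called 0 of the 7. The members with an unadjusted p below 0.05 were Ly9, at 0.15 ± 0.06 (153 and 153 CPM in Susd2-/- libraries, against 137 and 138 CPM in WT libraries, adjusted p = 0.556), and Slamf7, at -0.29 ± 0.13 (23.3 and 24.3 CPM in Susd2-/- libraries, against 26.1 and 32.2 CPM in WT libraries, adjusted p = 0.585). In 3 of the 7 genes the libraries of the genotypes did not overlap: Ly9 was higher, and Slamf7 and Slamf1 were lower, in Susd2-/- libraries. Of all genes, 33.7% had such separation, 17.4% higher and 16.3% lower. The log2 fold change of Cd48 was -0.03 ± 0.06 (adjusted p = 0.969), that of Slamf6 0.00 ± 0.08 (adjusted p = 1), that of Cd84 0.05 ± 0.08 (adjusted p = 0.929) and that of Sh2d1a -0.04 ± 0.07 (adjusted p = 0.949). Slamf1 stood at -0.19 ± 0.14 (adjusted p = 0.795). These p-values do not show that the genotypes are alike.

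In naive cells, the contrast that helped to choose the genes, all 7 log2 fold changes of Susd2-/- over WT were below 0, though that of Ly9 changed sign under 4 of 18 alternative settings. The Susd2-/- libraries lay below both WT libraries in 5 of the 7, where 65% of all genes were separated, 31.4% downward and 33.6% upward. Nothing is read from that count. The value was -1.02 ± 0.06 for Cd48, -0.91 ± 0.14 for Slamf7, -0.60 ± 0.08 for Sh2d1a, -0.31 ± 0.07 for Cd84 and -0.25 ± 0.07 for Slamf6. Slamf1 (-0.27 ± 0.16) and Ly9 (-0.02 ± 0.06) overlapped between the genotypes. The Slamf1 value varied with the WT libraries: it was -0.00074 without WT library 3 and -0.52 without WT library 4.

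Among relatives outside the set, Cd2, which encodes the CD48 ligand of mouse T cells, rose with activation, and Cd244a, which encodes another receptor for CD48, fell. Cd2 had 468 and 470 CPM in Susd2-/- libraries at day 3, against 349 and 338 CPM at day 0, and 441 and 517 CPM in WT libraries at day 3, against 403 and 405 CPM at day 0. Its log2 fold change was 0.45 ± 0.07 in Susd2-/- cells (adjusted p = 8.12e-06) and 0.25 ± 0.07 in WT cells (adjusted p = 0.00318). Cd244a had 0.20 and 0.57 CPM in Susd2-/- libraries at day 3, against 4.78 and 5.06 CPM at day 0, and 0.48 and 0.46 CPM in WT libraries at day 3, against 8.94 and 8.98 CPM at day 0. Its log2 fold change was -3.53 ± 0.33 in Susd2-/- cells (adjusted p = 1.2e-08) and -4.23 ± 0.34 in WT cells (adjusted p = 1.01e-09). Its span covers that of Ly9 on the opposite strand, with no shared exon sequence.

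Sh2d1b1, which encodes EAT-2, the SAP-related adaptor of natural killer cells, had 0 counts in all 4 day 3 libraries. Naive Susd2-/- cells gave 10 and 8 counts and naive WT cells 11 and 14. Against a floor of 3 counts over a group it was 7.93-fold lower at day 3 in Susd2-/- cells (edgeR adjusted p = 0.0028). In WT cells it was 8.05-fold lower against the same floor (adjusted p = 0.00232). Counts are not independent fragments, as set out below, so these are not firm lower bounds. Slamf8, a receptor of myeloid cells, had 0 counts at day 3, and in naive cells 6 and 0 (Susd2-/-) against 12 and 6 (WT). Slamf9 had 6 counts in 1 Susd2-/- library of day 3, 2 in each WT library of day 0 and 0 elsewhere. Both were below the filter and were not tested. At day 3 neither Cd2, Cd244a nor Sh2d1b1 passed edgeR's test between genotypes, with 0 of the 3 at an unadjusted p below 0.05.

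Of 15 signalling partners of the receptors and SAP, 1 rose, 10 fell and 4 did not pass after activation of Susd2-/- cells, with a median log2 fold change of -0.85, against -0.12 for all genes tested, of which 36.7% were called higher and 39.7% lower. In WT cells 5 rose and 10 fell, with a median of -0.60, against -0.14 for all genes, of which 36.2% were called higher and 39% lower. The adaptor genes Nck1 and Dok2 fell, with log2 fold changes of -1.17 for Nck1 and -1.13 for Dok2 in Susd2-/- cells, and -1.50 for Nck1 and -1.04 for Dok2 in WT cells. Ptpn11, the gene of the phosphatase SHP-2, rose by 0.73 ± 0.06 in Susd2-/- cells and by 0.96 ± 0.06 in WT cells. Ptpn6, the SHP-1 gene, rose in WT cells by 0.62 ± 0.06 (adjusted p = 2.08e-08), as did Dok1 by 0.43 ± 0.12. In Susd2-/- cells Ptpn6 stood at 0.10 ± 0.06 (adjusted p = 0.154) and Dok1 at 0.13 ± 0.12 (adjusted p = 0.311). These comparisons by day include the naive libraries, in which the 3 partners of largest genotype difference were Inpp5d at 0.58, Ptpn6 at 0.48 and Fyn at 0.35, all higher in Susd2-/- cells and given without a test. Naive Susd2-/- cells thus had lower levels of the SAP gene beside higher levels of Fyn, at 376 ± 7.17 CPM in Susd2-/- and 294 ± 4.4 CPM in WT cells (SD, n = 2). At day 3 edgeR called 0 of the 15 between genotypes, with 2 at an unadjusted p below 0.05.

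Cd48 was also set beside 9 other genes of GPI-anchored lymphocyte surface proteins. In Susd2-/- cells 4 rose and 5 fell after activation, with a median log2 fold change of -0.86, where all genes had a median of -0.12, 36.7% called higher and 39.7% lower. In WT cells 4 rose, 4 fell and 1 did not pass, with a median of -1.49, where all genes had a median of -0.14, 36.2% called higher and 39% lower. Art2b, an ADP-ribosyltransferase gene of mouse T cells, and Cd55, a complement regulator gene, fell most: the log2 fold change of Art2b was -4.82 in Susd2-/- and -6.11 in WT cells, and that of Cd55 was -5.33 in Susd2-/- and -5.77 in WT cells. Prnp, the prion protein gene, rose by 2.47 ± 0.34 in Susd2-/- cells and by 3.26 ± 0.35 in WT cells. Bst2 rose by 1.41 and Cd24a by 0.94 in Susd2-/- cells, against 1.57 and 1.71 in WT cells. Cd59a, at 1.3 CPM or less in every library, fell by 4.24 ± 0.97 in Susd2-/- cells, and stood at -1.49 ± 1.11 in WT cells (adjusted p = 0.226). Nt5e fell, with -1.94 in Susd2-/- cells and -2.67 in WT cells. In naive cells, with no test, the largest genotype differences were 2.27 for Cd59a, -1.06 for Art2b and -0.86 for Cd52. At day 3 edgeR called 0 of the 9 between genotypes, with 1 at an unadjusted p below 0.05.

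Along the chromosome the cluster held 19 annotated genes, of which 15 were in the count table and 12 were tested. Between Cd84 and Slamf6, the members that fell most, lies Gm10521, and Gm37065 reaches into Slamf6 from the same side. Both fell too. Gm10521 had a log2 fold change of -4.95 ± 0.25 in Susd2-/- cells (adjusted p = 1.22e-12) and of -3.82 ± 0.24 in WT cells (adjusted p = 3.45e-11). Gm37065, antisense to Slamf6 and overlapping its span but not its exons, had -4.12 ± 0.50 in Susd2-/- and -6.09 ± 0.63 in WT cells. The strand setting of the counting is not given in the sources used here, so reads of such antisense pairs may not be separable. Next to Cd48, A630035G10Rik lies on the opposite strand, just before the Cd48 start. It had 0.39 ± 0.16 CPM in Susd2-/- cells and 0.83 ± 0.20 CPM in WT cells at day 0 (24 against 51 counts). That log2 fold change was -1.07 ± 0.67, a wide SE at so few counts, and is given without a test. At day 3 it did not pass the genotype test (-0.94 ± 0.76, adjusted p = 0.827). Gm37010, which lies within the Cd48 span on the same strand, was below 1 CPM in every group and passed none of the 3 tests. The processed pseudogene Tma7-ps, whose counts may come in part from its parent gene, rose by 0.82 ± 0.12 in Susd2-/- and by 0.71 ± 0.12 in WT cells.

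**Figure D4:**
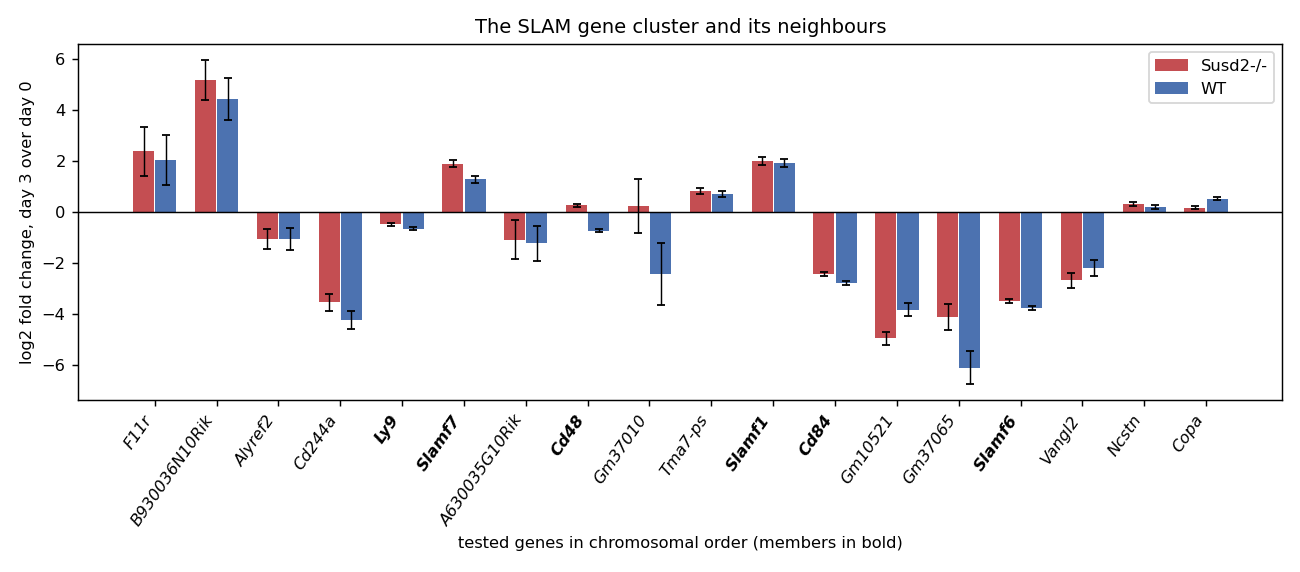
Log2 fold change of day 3 over day 0 (bars, whiskers SE) for the tested genes of the cluster and 3 tested genes on each side, in chromosomal order, red Susd2-/- and blue WT, with the members in bold. Bars at the right of the cluster, from Cd84 to Slamf6, all point down by more than 2 log2 units, while Slamf7 and Slamf1 point up next to Ly9 and Cd84, which point down.

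The tested neighbours outside the cluster shared no one direction. Vangl2, beyond Slamf6, fell at low levels, with -2.68 ± 0.31 in Susd2-/- cells and -2.19 ± 0.30 in WT cells. Ncstn rose by 0.30 in Susd2-/- cells (edgeR adjusted p = 0.0015) and by 0.20 in WT cells (adjusted p = 0.0242). Copa rose by 0.18 in Susd2-/- cells (adjusted p = 0.011) and by 0.53 in WT cells (adjusted p = 1.43e-07). Most of these values are of the size by which scaling by library totals moved the median of all genes. On the Ly9 side, Alyref2 fell by 1.05 in both genotypes and B930036N10Rik rose by 5.17 in Susd2-/- and by 4.44 in WT cells. F11r rose by 2.38 ± 0.97 in Susd2-/- cells (adjusted p = 0.0323) and stood at 2.04 ± 1.00 in WT cells (adjusted p = 0.0711).

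The genes whose course over the 8 libraries was most like that of each member were found by the root mean square difference of centred log2 CPM among 8344 genes. For Cd48 these were Tmem126b (0.0882), Gvin1 (0.102) and Cmc1 (0.108). Tmem126b averaged 15.8 CPM in Susd2-/- and 16.2 CPM in WT cells at day 3, and 13.2 CPM in Susd2-/- and 24.1 CPM in WT cells at day 0. The course of Cd48 includes the naive genotype difference that helped to choose it. The nearest member to Cd48 was Ly9 (0.397), and that to Slamf6 and to Cd84 was the other of the pair (0.509). For Slamf6 the nearest were Syne1 (0.0791), Itgb7 (0.0915) and Sgms1 (0.0933), and for Cd84 they were the carboxypeptidase M gene Cpm (0.0541), Pced1b (0.0768) and Rasgrp1 (0.0802). Sh2d1a was nearest to Tomm5 (0.0377) and Ddx28 (0.0818). Slamf1 was nearest to Tspan31 (0.0919), Slc25a1 and Alad, and Slamf7 to Eif4e3 (0.148), Cwc27 and Gbp5. Ly9 was nearest to Sin3b (0.056), Hif1an and Zranb1. The closest pair among the members was Slamf1 and Sh2d1a (0.224). For the members other than Cd48, these measures share the large difference between days.

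The labelled cell type was checked against marker genes. The 9 CD8 T cell identity genes summed to 2884 to 3016 CPM in Susd2-/- and 2931 to 3001 CPM in WT libraries at day 3, and to 4874 to 5218 CPM in Susd2-/- and 5816 to 5890 CPM in WT libraries at day 0. All 9 fell with activation in both genotypes. Several SLAM family genes are also expressed by B cells, macrophages and natural killer cells, whose markers were summed in the same way. The 10 monocyte and macrophage markers summed to 1.87 to 2.22 CPM in Susd2-/- and 2.36 to 3.57 CPM in WT libraries at day 3. There 5 of the 10 were at 0 in each genotype, and Cd68 made up most of the sum. Cd68 did not pass edgeR's test by day in WT cells (adjusted p = 0.194). At day 0 the 10 summed to 106 to 112 CPM in Susd2-/- and 50.4 to 52.9 CPM in WT libraries. Lyz2 went the other way from the other 9, with 8.10 and 7.04 CPM in Susd2-/- and 9.91 and 11.2 CPM in WT libraries. The 7 NK cell markers summed to 14.3 to 16.5 CPM in Susd2-/- and 11.7 to 16.9 CPM in WT libraries at day 3, with Klra7 and Klra8 at 0. Klrc1, which activated CD8+ T cells also express, made up most of the day 3 sum, at 13.9 and 15.7 CPM in Susd2-/- and 15.6 and 10.4 CPM in WT libraries. It rose with activation and the other 6 fell in both genotypes. At day 0 the 7 summed to 20.7 to 23.1 CPM in Susd2-/- and 28.7 to 30 CPM in WT libraries. Of the 7, 4 were lower in both Susd2-/- libraries, where 31.4% of all genes were, and Klrb1b, Klrc1 and Klra8 overlapped between the genotypes. Slamf7 and Cd244a were also lower in naive Susd2-/- cells. The 10 B cell markers summed to 2.29 to 3.09 CPM in Susd2-/- and 2.1 to 4.25 CPM in WT libraries at day 3, and to 21.5 to 26.1 CPM in Susd2-/- and 21.7 to 23.6 CPM in WT libraries at day 0. Ms4a1 was at 0 in all day 3 libraries, while Cd79b had 1.41 and 2.09 CPM in Susd2-/- and 0.94 and 2.76 CPM in WT libraries. Ebf1 went the other way in WT cells, from 0 and 0 counts at day 0 to 11 and 10 at day 3 (edgeR adjusted p = 0.00261). In Susd2-/- libraries it had 5 and 2 counts at day 0 and 6 and 30 at day 3 (adjusted p = 0.0865).

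The 7 dendritic cell markers summed to 2.17 to 2.26 CPM in Susd2-/- and 2.41 to 2.62 CPM in WT libraries at day 3, with 3 of the 7 at 0. At day 0 they summed to 9.16 to 10.6 CPM in Susd2-/- and 12.6 to 13.6 CPM in WT libraries. Itgax was lower in naive Susd2-/- cells, at 5.39 CPM against 10.3 CPM in WT cells. Flt3 (0.82 against 0.42 CPM) and Zbtb46 (2.06 against 0.89 CPM) were higher there, and Xcr1 overlapped between the genotypes. The 6 plasma cell markers, which include Xbp1, a gene T cells also express, summed to 186 to 189 CPM in Susd2-/- and 183 to 206 CPM in WT libraries at day 3, with Mzb1 and Tnfrsf17 at 0. Sdc1, another of the 6, averaged 30.8 CPM in Susd2-/- and 26.2 CPM in WT cells at day 3. At day 0 the 6 markers summed to 53.4 to 55 CPM in Susd2-/- and 65.1 to 66.4 CPM in WT libraries. There Xbp1 averaged 46.3 CPM in Susd2-/- and 30.8 CPM in WT cells. Sdc1 was also higher in Susd2-/- cells, at 1.31 CPM against 0.32 CPM in WT cells. The immunoglobulin gene Igha went the other way, at 4.46 CPM in Susd2-/- and 24.7 CPM in WT cells. So did Jchain, at 2.08 CPM in Susd2-/- and 9.84 CPM in WT cells. Slamf7, a gene of plasma cells too, was lower in the same Susd2-/- libraries. The 5 CD4 and regulatory T cell markers, which include Ctla4, a gene activated CD8+ T cells also express, summed to 527 to 533 CPM in Susd2-/- and 405 to 508 CPM in WT libraries at day 3, where Cd4 itself was at 0 in WT, and to 57.9 to 61.3 CPM in Susd2-/- and 27.0 to 28.7 CPM in WT libraries at day 0. Most of that day 0 difference was Ctla4, at 44.6 CPM in Susd2-/- and 16.5 CPM in WT cells. Cd40lg was also higher, at 10.2 CPM in Susd2-/- and 7.23 CPM in WT cells. Cd4 averaged 0.39 CPM in Susd2-/- and 0.24 CPM in WT cells. Foxp3 (1.01 against 0.96 CPM) and Zbtb7b (3.31 against 2.92 CPM) overlapped between the genotypes. The part of these other cell types in the changes of the SLAM family genes was not tested.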

How the data were processed

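The authors deposited raw counts per gene symbol and sequencing lane, whole numbers with no normalization, per the file headers. Tools listed in the submitters' processing notes, with no role stated, are HISAT2 2.1.0, fastp 0.23.2, Subread 2.0.1 and SAMtools 1.10, with the build GRCm38. Which annotation, strand option and multi-mapping rule were used is not given in the sources used here. Across genes, a count of 2 was 1.69 to 2.04 times as frequent as a count of 1 in each lane, so counts are not independent fragments. A floor of 3 counts can therefore stand for fewer fragments, and fold bounds drawn from it may be too large. At best such a floor covers counting error only.

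The 15 lane columns were summed to 8 libraries, 7 of 2 lanes and 1 (WT day 3, library 2) of 1 lane. Genes passing filterByExpr (16057 of 27019) were fitted in edgeR 4.0.16 (R 4.3.3) with TMM factors, glmQLFit (robust) and the quasi-likelihood F test over the 4 groups, with Benjamini-Hochberg adjustment over all genes. The SE of a log2 fold change was taken from its ratio to the root of F. The procedure was tested on counts simulated with the fitted spread per gene, which cannot show whether that spread is technical. DESeq2 1.42.0 and limma 3.58.1 were alternatives. Exon lengths and positions came from GENCODE M21 (GRCm38). The pattern search used genes of average log2 CPM of at least 3, with 0.1 CPM added, and named the 3 nearest genes of each member.

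The members and the lists of partners, GPI-anchored proteins, relatives and cell type markers were chosen with earlier results of these data known. The text names all members, the 5 relatives in the count table and the tested genes of the cluster, and from the partner and GPI lists up to 3 called genes of largest change per direction and the 3 of largest day 0 difference. Among the partners and the nearest genes, 2 that these rules name are not reported here. The day 0 genotype contrast and the genotype by day difference got no test for the members.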

Additional observations from a re-analysis of the deposited data

Results flagged for a closer look

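On the TMM scale the day 3 over day 0 values of Cd48 had opposite signs in the genotypes: its log2 fold change of day 3 over day 0 was 0.27 in Susd2-/- cells, where both day 3 libraries lay above both day 0 libraries, and -0.72 in WT cells, where both lay below. Scaled by library totals alone, the Susd2-/- value was 0.07 and its libraries overlapped between days (108 and 117 CPM at day 3, 105 and 109.6 CPM at day 0), while the WT value was -0.90. The difference was not tested, because the day 0 level of Cd48 in the same libraries helped to choose the gene.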

How the results depend on the processing

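The members' fold changes and calls were recomputed under 21 alternatives (other scaling, no filter, DESeq2, limma voom, other moderation, first lanes, a library number block, each library left out, fits of 1 day or 1 genotype, day 0 libraries summed), of which 18 apply to each comparison and 17 to the genotype by day difference. Values of other genes, shares, patterns and marker sums were not recomputed. Under every one of the 18, 0 of the 7 genes passed between genotypes at day 3 and 6 of 6 passed between days in each genotype, which includes the range over the fits that leave out 1 library each (0 to 0 at day 3, 6 to 6 by day). Libraries of the 2 genotypes share numbers within a day. The deviations of same-numbered libraries correlated by only 0.00768 at day 0 and -0.0329 at day 3. No pairing by number was seen, though a correlation from a single library difference per genotype cannot exclude one. With the replicate block the counts were 0, 6 and 6. The day 3 background count of 22 genes was less stable: 66 with DESeq2, 138 with no filter, 13 without robust moderation, 3 in a fit of day 3 alone, 1 with day 0 libraries summed, and 6 to 392 with 1 library left out. It was 392 without Susd2-/- day 3 library 1, 12 without Susd2-/- day 3 library 2, 309 without WT day 3 library 1, 59 without WT day 3 library 2, 6 without Susd2-/- day 0 library 4, 49 without WT day 0 library 3 and 14 without WT day 0 library 4. The cause was not tested. Values of Cd48 at day 3 against WT ran from -0.09 to 0.03 and those of Slamf7 from -0.41 to -0.10. Of the members' fold changes under these alternatives, 605 kept their call or, where no test was made, stayed within the spread between libraries. Among those, 19 had the other sign, none of them a called value. A further 18, all given without a test, moved by more than that spread. With 2 libraries per group, small differences at day 3 were not detectable at this spread.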
